A study of Homo sapiens with 12 samples.

Results

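SRF, the serum response factor, and 9 genes of the actin cytoskeleton that are known as its targets were taken from the raw count table by gene symbol, in all 12 libraries. The target genes were ACTB, ACTG1, FLNA, VCL, TPM1, ACTA2, TAGLN, FHL2 and MYL9. Rows were found for 9 of the 10 genes, among 20771 genes in the table, and all 9 passed the filter on low counts that left 16515 genes for testing. MYL9, which encodes a regulatory light chain of myosin, was not analysed here.

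The study asked what loss of RRM1, the catalytic subunit of ribonucleotide reductase, does to Ewing sarcoma cells, which come from a bone and soft tissue tumor of young people. EW8-RRM1-KO and TC71-RRM1-KO are Ewing sarcoma cell lines whose endogenous RRM1 gene was cut with CRISPR/Cas9, and in which a codon-optimized RRM1 transgene is switched on by doxycycline. Libraries labelled 0 h came from cells kept in doxycycline and libraries labelled 48 h from cells without it for 48 hours, with 3 libraries for each line and time. Every library came from cells with both the edited gene and the transgene, and each line was grown from 1 cell, so a comparison of the lines is a comparison of those clones. Removal of doxycycline and loss of RRM1 cannot be told apart in this design. The sources used here do not say whether the 3 libraries of a group came from separate cultures, so p-values measure the spread between these libraries, which may be technical.

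Library totals ran from 18468485 to 35698991 counts. RRM1 had 166 to 317 counts in EW8 at 0 h and 1201 to 1514 at 48 h, and 316 to 422 and 674 to 778 in TC71. Reads were aligned to the human genome and the transgene is recoded. Whether any RRM1 reads came from the transgene was not tested, so the row is no check of the labels. All 8 Ewing sarcoma markers examined, among them CD99, FLI1 and NKX2-2, were present in every group, at a summed level of 1649 to 1853 CPM. CPM are counts scaled to a common library size, here with TMM factors.

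SRF is a transcription factor that binds the CArG box, a short element of A and T bases between CC and GG. It acts with cofactors of different kinds. The myocardin-related factors MRTFA and MRTFB are held by monomeric actin and are released when actin polymerizes, and with them SRF drives genes of the cytoskeleton and of smooth muscle, including the actins and SRF itself. The ternary complex factors ELK1, ELK3 and ELK4 respond to MAP kinase signaling and drive immediate early genes such as FOS and EGR1. MRTF-SRF activity is best known from muscle, from fibroblasts and from cells that spread, adhere or migrate.

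CArG boxes were searched in RefSeq promoter windows of GRCh38.p14 that run from 250 bases before to 50 after each start site, on both strands. Windows were found for 7 of the 10 genes. ACTB, TAGLN and MYL9 had no entry. The box, 10 letters long with 6 A or T bases, was in at least 1 window of SRF, ACTG1, FLNA and FHL2, which is 4 of 7 genes, and in 1.60% of the 27305 genes with a window. The window of VCL and that of TPM1 held no exact match. Of the 6 windows with an exact box, 3 were of FHL2, and overlapping windows among these share 1 box. A window of each of the 4 genes is shown because it holds the letters that SRF is known to bind. Each is the 200 bases before the start site, 5′ to 3′ on the strand of the gene, with boxes in capitals.
SRF, chr6:43171069-43171268, + strand: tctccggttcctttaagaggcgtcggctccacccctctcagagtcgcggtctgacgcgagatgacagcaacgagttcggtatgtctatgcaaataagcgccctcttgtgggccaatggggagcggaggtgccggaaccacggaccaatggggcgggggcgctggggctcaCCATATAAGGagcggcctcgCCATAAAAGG
ACTG1, chr17:81512800-81512999, - strand: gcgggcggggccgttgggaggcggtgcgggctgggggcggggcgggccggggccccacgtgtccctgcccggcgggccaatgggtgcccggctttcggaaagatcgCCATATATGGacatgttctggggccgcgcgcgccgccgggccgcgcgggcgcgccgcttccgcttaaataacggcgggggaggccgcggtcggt
FLNA, chrX:154374635-154374834, - strand: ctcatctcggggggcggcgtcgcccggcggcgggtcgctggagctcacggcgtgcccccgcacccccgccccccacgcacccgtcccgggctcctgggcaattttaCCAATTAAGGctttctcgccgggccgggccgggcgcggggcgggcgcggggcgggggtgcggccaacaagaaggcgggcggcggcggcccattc
FHL2, chr2:105399052-105399251, - strand: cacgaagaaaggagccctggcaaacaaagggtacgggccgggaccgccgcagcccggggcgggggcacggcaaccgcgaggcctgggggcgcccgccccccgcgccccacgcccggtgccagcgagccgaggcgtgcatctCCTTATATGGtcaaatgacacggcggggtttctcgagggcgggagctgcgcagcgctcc

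The boxes of SRF started 30 and 10 bases before the start site, the boxes of ACTG1 and FLNA 94 bases before theirs, and the box of FHL2 59 bases before this start site. Overlapping windows of FHL2 start sites further upstream hold 1 and the same box, 101 and 85 bases before the start site. Another upstream start site of FHL2 had no box. ACTA2 had no exact box, but 2 stretches 121 and 71 bases before 1 of its start sites matched at all but 1 letter, as did stretches in 18.9% of all 35116 windows, counted with exact boxes. They are in capitals in the next sequence, shown because smooth muscle actin gave the greatest rise of the 9 genes.
ACTA2, chr10:88952774-88952973, - strand: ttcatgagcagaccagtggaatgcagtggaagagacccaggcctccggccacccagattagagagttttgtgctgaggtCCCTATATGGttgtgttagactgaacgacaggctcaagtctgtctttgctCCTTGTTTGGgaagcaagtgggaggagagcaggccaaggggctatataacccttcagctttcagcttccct

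A match in these windows is a description of letters and not of binding.

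SRF mRNA fell in both lines after removal of doxycycline. SRF (ENSG00000112658, chr6:43171269-43181506 in hg38) had 132, 133 and 129.8 CPM in the EW8 group labelled 0 h, against 99.2, 105 and 100.2 CPM in the group labelled 48 h. The TC71 libraries had 83.0, 89.8 and 80.8 CPM at 0 h and 74.4, 67.9 and 72.8 CPM at 48 h. All 48 h libraries of a line lay below all its 0 h libraries. The log2 fold change was -0.38 (SE 0.05, adjusted p = 1.09e-08) for EW8 and -0.24 (SE 0.05, adjusted p = 0.000151) for TC71, or decreases of 23.0% and 15.1% as fitted. The responses of the lines differed by -0.14 (95% interval -0.28 to -0.0050, adjusted p = 0.0813), which did not pass the threshold of 0.05. At 0 h, SRF was higher in EW8 than in TC71 by 0.64 on the log2 scale (SE 0.05, adjusted p = 4.57e-14). In bulk RNA, a change in the number of cells of a type and a change in RNA per cell cannot be told apart.

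**Figure D1:**
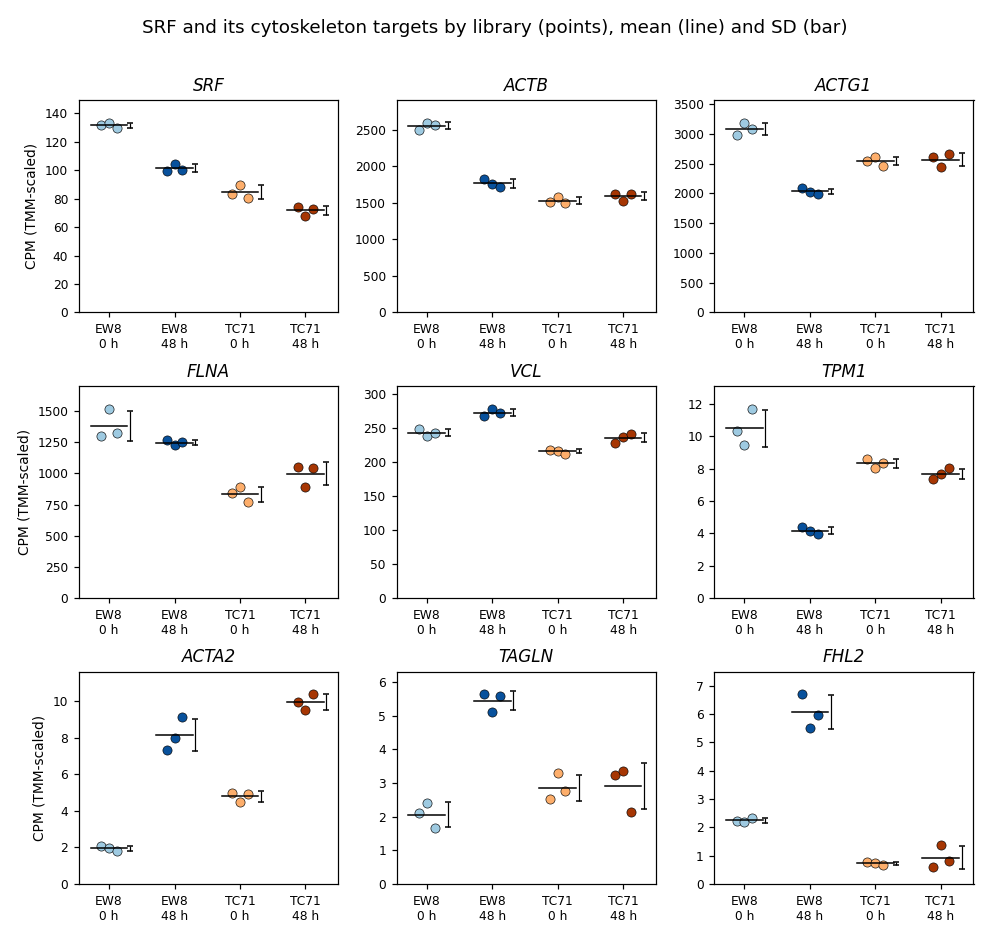
CPM (TMM-scaled, linear axes from 0) of SRF and 8 of its cytoskeleton targets in each of the 12 libraries, with the mean (line) and SD (bar) of the 3 libraries of a group. SRF was lower at 48 h in both lines, ACTB, ACTG1 and TPM1 were lower in EW8, and ACTA2 was higher in both.

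The cytoplasmic actins fell in EW8 and did not pass the test in TC71. ACTB encodes beta-actin and ACTG1 gamma-actin, the near-identical proteins that build the filaments of most cells. ACTB (ENSG00000075624, chr7:5526409-5563902) had 2498, 2595 and 2564 CPM in EW8 at 0 h and 1831, 1751 and 1712 CPM at 48 h. Among the TC71 libraries it had 1514, 1583 and 1492 CPM at 0 h and 1624, 1523 and 1615 CPM at 48 h. The EW8 groups were clearly apart and the TC71 groups overlapped. The ACTB change was -0.53 for EW8 (SE 0.04, adjusted p = 2.44e-15) and 0.05 for TC71 (95% interval -0.02 to 0.12, adjusted p = 0.23). The difference of the responses was -0.59 (SE 0.05, adjusted p = 1.10e-11).

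ACTG1 (ENSG00000184009, chr17:81509413-81523847) gave the same picture at a higher level. It had 2986, 3185 and 3084 CPM in EW8 at 0 h and 2083, 2023 and 1986 CPM at 48 h. The TC71 libraries had 2545, 2602 and 2464 CPM at 0 h and 2605, 2436 and 2658 CPM at 48 h. Again the EW8 groups were apart and the TC71 groups overlapped. The log2 fold change was -0.60 (SE 0.04, adjusted p = 1.21e-16) for EW8 and 0.02 for TC71 (95% interval -0.06 to 0.09, adjusted p = 0.737), and the difference of the responses was -0.62 (SE 0.05, adjusted p = 4.03e-12).

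Both actins together took 0.522% ± 0.0166 (SD, n = 3) of all counts in EW8 at 0 h and 0.383% ± 0.0136 at 48 h. In TC71 the share was 0.413% ± 0.0123 at 0 h and 0.437% ± 0.0181 at 48 h. The summed share in EW8 thus went from above the TC71 libraries to below them. ACTB alone did not, and its EW8 share at 48 h (0.173% to 0.186%) stayed above all TC71 libraries (0.151% to 0.171%). The ratio of ACTG1 to ACTB counts set the lines apart more than the times, at 1.21 ± 0.0169 and 1.15 ± 0.0120 in EW8 and 1.66 ± 0.0197 and 1.62 ± 0.0256 in TC71. Of the 1713 stretches of 100 bases in the ACTB transcript, 3 occur in another annotated gene, and none of those in the ACTG1 transcript do. The 17 rows of ACTB and ACTG1 pseudogenes and POTE genes summed to at most 197 counts in a library. The lowest ACTB count was 32285. The part of pseudogene reads in the actin counts was not tested.

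FLNA and VCL, which tie filaments to each other and to the membrane, moved little. FLNA encodes filamin A, a crosslinker of actin filaments. FLNA (ENSG00000196924, chrX:154348524-154374634) had 1299.7, 1521 and 1323 CPM in EW8 at 0 h and 1268, 1224 and 1250.3 CPM at 48 h. In TC71 FLNA had 841, 890.1 and 771 CPM at 0 h and 1054, 894 and 1046 CPM at 48 h. The 48 h libraries lay below the 0 h libraries in EW8 and above them in TC71, in each line by a narrow margin. The change was -0.15 for EW8 (95% interval -0.32 to 0.03, adjusted p = 0.126) and 0.26 for TC71 (SE 0.08, adjusted p = 0.0232), with a difference of -0.40 (SE 0.11, adjusted p = 0.0120). Neither call for a single line was firm. The TC71 rise had an adjusted p of 0.0511 to 0.0806 when replicate 1 or 3 of either time was left out. The EW8 value passed without EW8 0 h replicate 1 (-0.22, adjusted p = 0.0415) or without TC71 48 h replicate 2 (-0.15, adjusted p = 0.00814).

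VCL encodes vinculin, which links integrin adhesions to actin. VCL (ENSG00000035403, chr10:73995193-74121363) had 249, 238 and 243 CPM in EW8 at 0 h and 268, 279 and 272 CPM at 48 h. The TC71 libraries had 219, 217 and 212 CPM at 0 h and 229, 237 and 242 CPM at 48 h. In each line all 48 h libraries lay above all 0 h libraries. VCL rose by 0.16 (SE 0.04, adjusted p = 0.000277) for EW8 and by 0.13 for TC71 (SE 0.04, adjusted p = 0.00698), increases of 12.1% and 9.18%. The difference of the responses was 0.04 (95% interval -0.07 to 0.15, adjusted p = 0.594). Of the merged exons of VCL, 11.1% overlap AP3M1 on the other strand, a gene of an adaptor complex for vesicle transport. AP3M1 had 1962 to 5033 counts a library and changed by 0.32 (adjusted p = 1.54e-07) for EW8 and 0.08 (adjusted p = 0.128) for TC71, and its part in the VCL values was not tested.

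TPM1 encodes a tropomyosin, a coiled coil that lies along the filament and controls access of myosin. TPM1 (ENSG00000140416, chr15:63042620-63071915) had 10.3, 9.45 and 11.7 CPM in EW8 at 0 h and 4.41, 4.16 and 3.96 CPM at 48 h. TC71 had 8.57, 8.04 and 8.36 CPM at 0 h and 7.37, 7.68 and 8.01 CPM at 48 h. The EW8 groups were far apart, and the highest TC71 library at 48 h lay just under the lowest at 0 h. EW8 downregulated TPM1, at a log2 fold change of -1.35 (SE 0.11, adjusted p = 7.23e-13), and 1.27% of all genes tested had a lower value. The TC71 value was -0.11 (95% interval -0.31 to 0.08, adjusted p = 0.361), and the difference of the responses was -1.23 (SE 0.15, adjusted p = 2.02e-08). Downregulated and upregulated are used here for an adjusted p below 0.05 with a fold above 2.

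ACTA2 encodes the alpha-actin of smooth muscle and of activated fibroblasts, and it rose in both lines. ACTA2 (ENSG00000107796, chr10:88935074-88991339) had 2.10, 1.95 and 1.80 CPM in EW8 at 0 h and 7.34, 7.97 and 9.10 CPM at 48 h. TC71 started higher, with 4.99, 4.46 and 4.92 CPM at 0 h and 9.92, 9.51 and 10.4 CPM at 48 h. No library at 48 h came near one at 0 h of its line. ACTA2 was upregulated by 2.07 (SE 0.13, adjusted p = 1.44e-15) for EW8 and by 1.05 for TC71 (SE 0.11, adjusted p = 6.25e-10), folds of 4.21 and 2.07. The rise was greater in EW8 by 1.03 (SE 0.18, adjusted p = 1.04e-05), from a level at 0 h that was lower than that of TC71 (difference -1.31, SE 0.14, adjusted p = 7.49e-10). Without TC71 0 h replicate 2 the TC71 rise was 0.999 and fell short of a fold of 2.

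In EW8, the rise of ACTA2 and the fall of the cytoplasmic actins went in opposite directions. ACTA2 gave 0.346 ± 0.0333 counts for every 1000 of ACTB and ACTG1 in EW8 at 0 h and 2.15 ± 0.295 at 48 h. In TC71 it gave 1.18 ± 0.0990 at 0 h and 2.39 ± 0.0401 at 48 h. ACTA2 thus stayed a minor actin in every group. Exons of ACTA2 overlap exons of FAS, the gene of a death receptor, on the other strand over 387 bases, and the strand setting of the counting is not given in the sources used here. FAS had 127 to 231 counts in EW8 at 0 h and 478 to 543 at 48 h, and 197 to 264 and 525 to 735 in TC71, against 34 to 59, 138 to 186, 91 to 134 and 255 to 335 for ACTA2. The part of FAS reads in the ACTA2 rise was not tested. The antisense gene ACTA2-AS1 had at most 18 counts in a library.

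TAGLN encodes transgelin, also called SM22, an actin-binding protein that is an early marker of smooth muscle. TAGLN (ENSG00000149591, chr11:117199370-117207464) had 2.10, 2.41 and 1.68 CPM in EW8 at 0 h and 5.64, 5.11 and 5.58 CPM at 48 h. TC71 had 2.53, 3.28 and 2.77 CPM at 0 h and 3.24, 3.36 and 2.13 CPM at 48 h. The EW8 groups were apart and the TC71 groups overlapped, with 1 of the 48 h libraries the lowest of the 6. TAGLN was upregulated in EW8 by 1.44 (SE 0.17, adjusted p = 3.25e-09), and the TC71 change was 0.02 (95% interval -0.32 to 0.36, adjusted p = 0.94). The difference of the responses was 1.42 (SE 0.24, adjusted p = 7.88e-06). These rest on 42 to 114 counts a library. Of the merged exons of TAGLN, 34.1% overlap PCSK7, a proprotein convertase gene on the other strand, which had 791 to 1342 counts in EW8 at 0 h and 1511 to 1715 at 48 h. PCSK7 rose in both lines, by 0.91 (adjusted p = 2.65e-16) and 0.36 (adjusted p = 7.71e-06) in EW8 and TC71, and its part in the TAGLN counts was not tested. A gene model on the same strand (ENSG00000280143) also shares 65.1% of the 100-base stretches of the TAGLN transcript.

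FHL2 encodes a LIM-domain protein that binds SRF and integrins, and is itself a target of SRF. FHL2 (ENSG00000115641, chr2:105357712-105438513) had 2.23, 2.18 and 2.35 CPM in EW8 at 0 h and 6.70, 5.51 and 5.97 CPM at 48 h. FHL2 was lower in TC71, with 0.782, 0.735 and 0.662 CPM at 0 h and 0.611, 1.38 and 0.804 CPM at 48 h. The EW8 groups were apart, and the TC71 groups overlapped because the 48 h libraries spread from below to above those at 0 h. FHL2 was upregulated in EW8 by 1.41 (SE 0.16, adjusted p = 1.34e-09). The TC71 change was 0.35 (95% interval -0.21 to 0.90, adjusted p = 0.327), on 15 to 37 counts a library, and the difference of the responses was 1.07 (SE 0.33, adjusted p = 0.00701). FHL2 was higher in EW8 than in TC71 already at 0 h, by 1.63 (SE 0.23, adjusted p = 2.11e-07).

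In EW8, 4 of the 9 genes (44.4%) rose, namely VCL, ACTA2, TAGLN and FHL2, and 4 (44.4%) fell, namely SRF, ACTB, ACTG1 and TPM1, against 37% and 31.6% of all genes tested. With the fold threshold, 3 were upregulated and 1 downregulated, against 13.9% and 3.35% of all genes. In TC71, 3 (33.3%) rose, namely FLNA, VCL and ACTA2, and 1 (11.1%) fell, namely SRF, against 22.9% and 19.2% of all genes, and ACTA2 was upregulated and none was downregulated, against 3.26% and 0.854%. On p alone, 8 of the 9 genes were thus called in EW8 and 4 in TC71, in a data set where most genes tested were called in EW8. The median log2 fold change of the 9 was -0.15 in EW8 and 0.05 in TC71, beside 0.03 and -0.0013 over all genes.

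**Figure D2:**
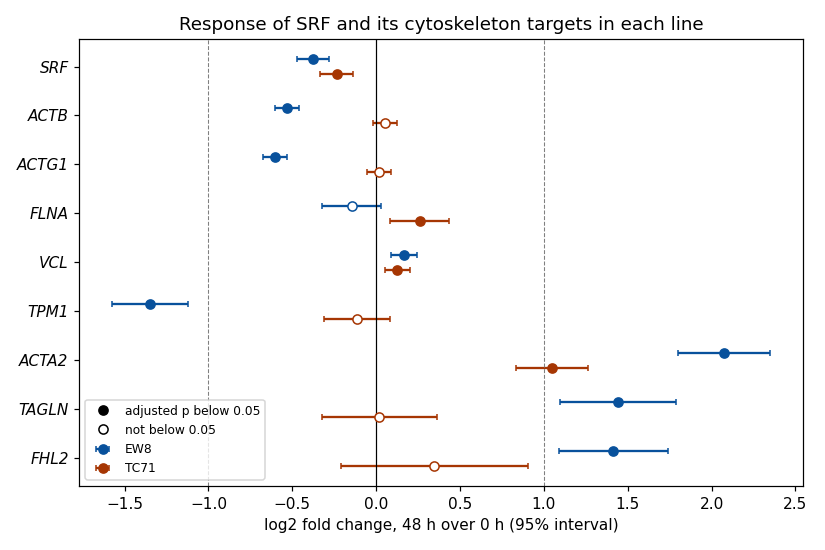
Log2 fold change of each gene, 48 h over 0 h, with its 95% interval, in EW8 (blue) and TC71 (brown). Filled points passed an adjusted p of 0.05 and dashed lines mark a fold of 2. TPM1, TAGLN and FHL2 lie beyond the dashed lines in EW8 and have TC71 intervals that include 0, and ACTA2 lies beyond them in both.

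The difference of the responses passed the test for 7 of the 9 genes, all but SRF and VCL. It was positive for 3 genes (ACTA2, TAGLN and FHL2) and negative for 4 (ACTB, ACTG1, TPM1 and FLNA), against 25.7% and 22.4% of all genes. For ACTA2, TAGLN and FHL2 it was also above 2-fold, as it was for TPM1 in the other direction, against 7.28% and 0.981% of all genes. With 1 library left out at a time, the TAGLN difference stayed above 2-fold, at 1.22 to 1.54 on the log2 scale. The ACTA2 difference ranged from 0.935 to 1.09 and was below 2-fold without EW8 0 h replicate 2 or 3, EW8 48 h replicate 3, TC71 0 h replicate 1 or TC71 48 h replicate 2, with the lowest value without EW8 0 h replicate 3. The FHL2 difference ranged from 0.860 to 1.44 and was below 2-fold without EW8 48 h replicate 1, TC71 0 h replicate 1, or TC71 48 h replicate 1 or 3, with the lowest value without TC71 48 h replicate 1. VCL and SRF were the genes that moved in the same direction and passed the test in each line along with ACTA2.

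At 0 h, 7 of the 9 genes were higher in EW8 than in TC71 and 2 were lower, against 32.8% and 32.9% of all genes. The differences were 0.74 for ACTB, 0.28 for ACTG1, 0.73 for FLNA, 0.17 for VCL and 0.35 for TPM1, beside those of SRF and FHL2, with adjusted p from 4.22e-19 to 0.00160. ACTA2 and TAGLN were the lower ones in EW8. The TAGLN difference of -0.50 (SE 0.19, adjusted p = 0.0173) was lost without EW8 0 h replicate 3 (-0.33, adjusted p = 0.174) and without TC71 0 h replicate 2 (-0.41, adjusted p = 0.0750). FHL2 was the 1 gene above 2-fold higher and ACTA2 the 1 above 2-fold lower, against 4.77% and 11.9% of all genes. EW8 at 0 h enters this comparison and the EW8 response alike, so these comparisons share libraries.

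Levels between genes were compared as CPM per kb of merged exons (GENCODE 44). In EW8 at 0 h, ACTG1 (761) and ACTB (579) led, then FLNA (127), SRF (31.1) and VCL (24.4), all with library ranges that did not overlap. TPM1 followed far below at 0.714. ACTA2 (0.346), FHL2 (0.340) and TAGLN (0.315) came last, and their ranges overlapped. At 48 h in EW8, TPM1 (0.284) was the lowest of the 9, under TAGLN (0.831), FHL2 (0.915) and ACTA2 (1.45), of which TAGLN and FHL2 overlapped. VCL (27.3) then stood above SRF (23.9), as it did in TC71 at both times. FHL2 was the lowest in TC71, at 0.110 and 0.141. Dividing by the longest transcript in place of merged exons put TAGLN above FHL2 in EW8 at both times, and TPM1 above ACTA2 in TC71 at 0 h. It also brought VCL (30.5) close to SRF (31.1) in EW8 at 0 h, so their separation there rests on the length used. The smooth muscle genes were low against the whole transcriptome as well: in EW8 at 0 h, 28.7% of genes tested had a lower CPM than ACTA2 and 29.3% a lower CPM than TAGLN, but 99.9% a lower CPM than ACTG1.

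**Figure D3:**
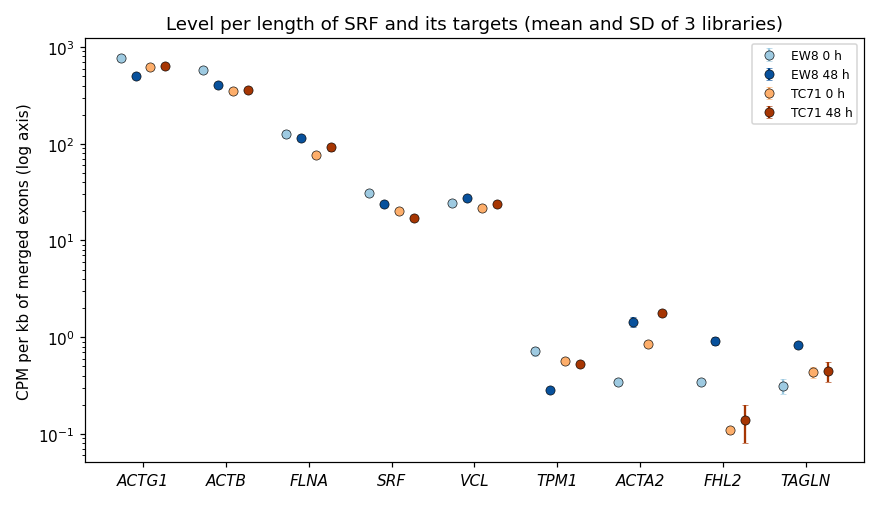
Level per length (CPM per kb of merged exons, log axis) of the 9 genes, as the mean and SD of 3 libraries in each of the 4 groups. The cytoplasmic actins, FLNA, SRF and VCL lie above 15 in every group, and TPM1, ACTA2, FHL2 and TAGLN lie below 2.

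The genes whose log2 CPM was most like that of SRF over the 12 libraries, among 9486 genes with a mean of at least 10 CPM, were SEC13 (Pearson's r = 0.995), ARID1B (0.994), SCARB1 (0.991), REEP4 (0.991) and KDELR1 (0.990). Those most like TAGLN were COQ4 (0.979), ANKZF1 (0.957), PABPC1L (0.952), ENSG00000205664 (0.950) and RNF123 (0.950). None of these is in the lists of SRF targets used here. The 12 points share 4 group means, so a gene that steps between groups in the same way gets a high r.

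The other members of the same families did not follow 1 direction. Of 10 paralogs tested, EW8 had 6 that rose and 2 that fell and TC71 had 5 and 1. These are 60% and 20% in EW8, against 37% and 31.6% of all genes, and 50% and 10.0% in TC71, against 22.9% and 19.2%. The medians were 0.19 and 0.14, beside 0.03 and -0.0013 over all genes. FHL3, a LIM-domain relative of FHL2, rose by 1.21 (adjusted p = 1.81e-20) and 0.60 (adjusted p = 2.14e-11). The smooth muscle gamma-actin ACTG2 rose by 1.41 in EW8 (adjusted p = 0.000753), on 5 to 23 counts a library in that line, and its TC71 value was 0.70 (adjusted p = 0.0923). Transgelin 2 (TAGLN2) rose by 0.28 and 0.18. The tropomyosins split. TPM2 rose by 0.32 and 0.10, TPM4 rose by 0.20 and 0.27, and TPM3 fell by 0.28 in EW8 with a TC71 value of -0.04 (adjusted p = 0.326). MYL6, a myosin light chain, fell by 0.14 in EW8, with a TC71 value of 0.0093 (adjusted p = 0.873). MYL12B rose by 0.18 in EW8, while MYL12A fell by 0.15 and FHL1 rose by 0.19 in TC71. ACTA1, FLNC and TAGLN3 were too low to test, and ACTC1 was not analysed here.

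Of the SRF cofactors, MRTFA rose and MRTFB fell in both lines. MRTFA had 45.0 to 47.9 CPM in EW8 at 0 h and 76.4 to 79.6 CPM at 48 h, a change of 0.74 (adjusted p = 9.22e-15), and it changed by 0.18 in TC71 (adjusted p = 0.00618). MRTFB had 23.4 to 25.6 CPM in EW8 at 0 h and 13.2 to 17.1 CPM at 48 h, a change of -0.66 (adjusted p = 2.46e-09), and it changed by -0.20 in TC71 (adjusted p = 0.0125). The responses differed between the lines for both, by 0.56 (adjusted p = 1.37e-07) and -0.45 (adjusted p = 0.000338). Among the ternary complex factors, ELK3 fell by 0.37 and ELK4 by 0.24 in EW8 and ELK1 rose by 0.15, and none of the 3 passed the test in TC71, at -0.0013, -0.12 and -0.05. Myocardin (MYOCD), the cofactor of smooth muscle, was not analysed here.

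A wider list of cytoskeletal and adhesion genes known as MRTF-SRF targets was measured for 37 genes. EW8 had 17 that rose, 5 of them upregulated, and 15 that fell, none of them downregulated. For TC71 the counts were 20, with 2 upregulated, and 8. In EW8, 45.9% rose and 40.5% fell, against 37% and 31.6% of all genes, and 13.5% were upregulated, against 13.9%. In TC71, 54.1% rose, 21.6% fell and 5.41% were upregulated, against 22.9%, 19.2% and 3.26%. The medians were 0.01 and 0.18, beside 0.03 and -0.0013 over all genes. CCN2 and CCN1, secreted matrix proteins, led in both lines, with 3.91 and 1.68 for CCN2 and 2.64 and 1.50 for CCN1. ZYX, the adhesion protein zyxin, rose by 1.80 and 0.80. PDLIM1 rose by 1.77 in EW8 and fell by 0.85 in TC71, on 6 to 46 counts a library. The lowest values in EW8 were those of smoothelin (SMTN), cofilin 1 (CFL1) and profilin 1 (PFN1), which fell by 0.66, 0.61 and 0.59. In TC71, FERMT2 fell by 0.32 and CFL2 by 0.24.

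The immediate early targets that SRF drives with ternary complex factors were the list that moved in 1 direction. The list was chosen with earlier results of these data known, and the study had already reported a rise of its members FOS, FOSB and JUNB. Its rise is thus a description and no independent test. All 12 rose in both lines, 12 upregulated in EW8 and 10 in TC71. Of all genes, 37% rose and 13.9% were upregulated in EW8, and 22.9% and 3.26% in TC71. The medians of the list were 3.05 and 2.24. FOS changed by 6.29 and 5.77, EGR3 by 6.23 and 3.92 and EGR4 by 6.13 and 4.16, and EGR1 by 5.49 and 4.03. The lowest were MCL1 (1.09 and 0.70), EGR2 (1.66 and 0.68) and IER2 (2.05 and 1.40). SRF itself fell in the same libraries, and of its 8 cytoskeleton targets none reached the median of this list in the same line. The lists overlapped, as ACTA2 (2.07 and 1.05) lay above MCL1 and EGR2 in both lines. CCN2 of the wider target list (3.91) lay above the EW8 median.

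**Figure D4:**
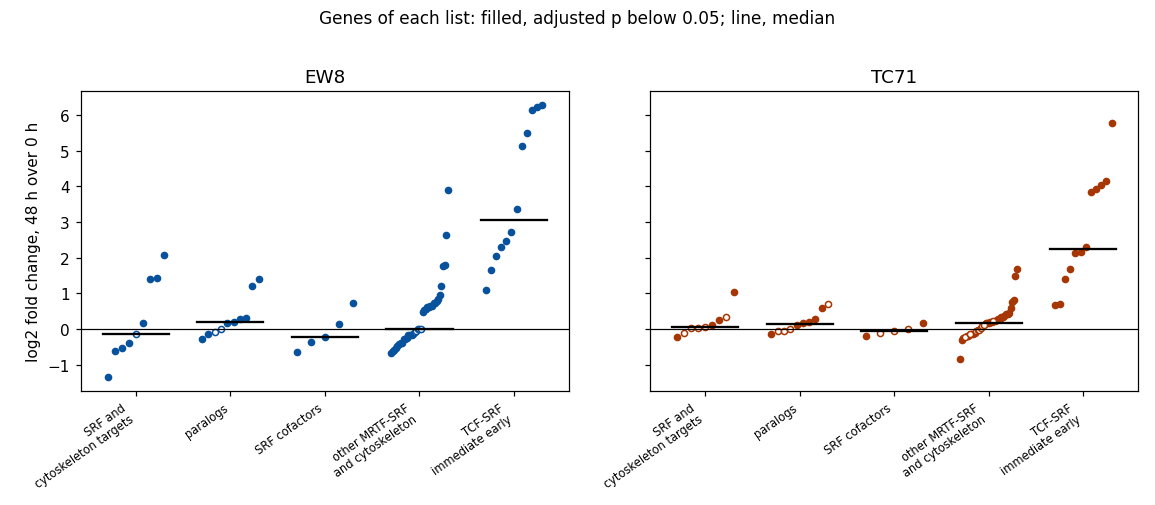
Log2 fold change, 48 h over 0 h, of every tested gene of each list in EW8 (left) and TC71 (right). Filled points passed an adjusted p of 0.05 and the line is the median. The immediate early genes all lie above 0 in both lines, and the other lists lie on both sides of 0.

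ACTA2 and TAGLN are also markers of smooth muscle cells and fibroblasts, so the other markers of those cells were read in the same libraries. Of 12 markers, 7 were in the table, and 5 (DES, LMOD1, MYOCD, COL1A2 and PDGFRA) were not analysed here. Their summed level was 60.4 to 67.8 CPM in EW8 at 0 h and 109 to 120.1 CPM at 48 h, and 141 to 144 CPM and 194 to 211 CPM in TC71. The smooth muscle markers MYH11 and CNN1 had a mean of at most 0.236 CPM in every group. The collagen gene COL1A1 rose by 1.79 and 0.66, the receptor PDGFRB by 1.28 and 0.65 and decorin (DCN) by 0.67 and 0.69. Lumican (LUM) rose by 0.49 in EW8. Smoothelin (SMTN), a smooth muscle marker, fell by 0.66 in EW8 and had a TC71 value of -0.14 (adjusted p = 0.166). Of the 5 markers tested, 4 rose and 1 fell in EW8 and 3 rose in TC71, against 37%, 31.6% and 22.9% of all genes. The part of such cells or of such a program in the ACTA2 and TAGLN values was not tested.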

How the data were processed

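RNA from the EW8 and TC71 knockout lines was isolated with an RNeasy Plus kit, made into polyA libraries with a TruSeq Stranded mRNA kit and sequenced as paired-end reads of 100 bp. Per the labels and the study's methods, the authors used FastQC for read quality and STAR for alignment to hg38. The deposited values are raw counts per gene, in whole numbers, for 12 libraries. The counting tool, its strand setting, the annotation release and the low-count filter are not given in the sources used here. No gene had a total below 21 counts.

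Tests used the quasi-likelihood method of edgeR 4.0.16 (R 4.3.3) in its robust form, with TMM factors and all 4 groups in the model, after filterByExpr (minimum count 10, minimum total 15), which kept 16515 of 20771 genes. The study used DESeq2, which was run as an alternative (1.42.0). A gene rose or fell with an adjusted p below 0.05 by Benjamini-Hochberg over all genes tested, and was upregulated or downregulated when the fold was also above 2. Every adjusted p in the text is of this kind. All folds are 48 h over 0 h unless named otherwise, and the difference of responses is the interaction term, EW8 minus TC71. TMM factors were 0.919 to 0.935 in EW8 at 0 h and 1.002 to 1.06 in the other libraries. The biological coefficient of variation, from the dispersion fitted in common to all genes, was 4.17%.

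The genes, the lists and the tests were chosen with earlier results of these data known. Genes named from the wider lists were the 3 highest and 3 lowest with an adjusted p below 0.05 in each line. FOSB and IER3 were named besides for their difference of responses. Some items are not reported here. All other paralogs and cofactors were named, with the 5 genes most like SRF and TAGLN. Exon lengths, overlaps and shared 100-base stretches came from GENCODE 44, to which 19943 gene identifiers matched, and promoters from RefSeq (GRCh38.p14). A planned comparison of actin protein sequences was not run. On simulated counts (16118 genes) the EW8 fit recovered 87.8% of genes raised 2-fold and 80.9% of those lowered 2-fold, and called 5 of 15926 unchanged genes. Few genes were changed there, as many raised as lowered, while 37% rose and 31.6% fell in the EW8 data. The simulation thus cannot show how the scaling or the rate of false calls behaves with so many changes.

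Alternatives were other scalings, filters and tests, a replicate block, each line alone, and leaving out each library. The correlation of deviations between libraries of the same number was -0.18 to -0.0079, so the numbers were not taken as pairs. Replicate libraries differed by more than sampling noise (chi-square per gene 2.06 to 9.62).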

Additional observations from a re-analysis of the deposited data

Results flagged for a closer look

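The response to removal of doxycycline differed between the lines by the interaction test, with an estimate above 2-fold, for 4 of the 9 genes. An estimate above 2-fold in the positive direction was called for 3 of them, against 7.28% of all genes, and in the negative direction for 1, against 0.981%. The test is of no difference, and all 4 of the 95% intervals reach below 2-fold. The EW8 response minus the TC71 response was 1.42 on the log2 scale for TAGLN (adjusted p = 7.88e-06), 1.03 for ACTA2 (adjusted p = 1.04e-05), 1.07 for FHL2 (adjusted p = 0.00701) and -1.23 for TPM1 (adjusted p = 2.02e-08). All 3 EW8 libraries at 48 h lay beyond all 3 at 0 h for each of these genes. In TC71 this held for ACTA2 and, narrowly, for TPM1.

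Among the other genes of the pathway, the estimate was above 2-fold for PDLIM1 (2.62), CCN2 (2.24) and CCN1 (1.13), 3 of 37 wider targets (8.11%). It was so for RHOB (1.67) and ARHGEF2 (1.08), 2 of 17 actin regulators tested (11.8%). Of the 12 immediate early genes, 5 (41.7%) had such an estimate: EGR3 (2.31), EGR4 (1.97), EGR1 (1.46), FOSB (1.29) and IER3 (1.21). Adjusted p ran from 2.41e-16 to 0.00160. The estimate was also above 2-fold for RRM1 itself (2.23, adjusted p = 3.06e-18). All of these were greater in EW8, the direction of 7.28% of all genes, against 0.981% in the other direction.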

How the results depend on the processing

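Of the values of the 9 genes under all alternatives, 711 kept their direction and side of the threshold, 9 turned direction, 9 passed in place of missing it and 9 missed it in place of passing. All those that turned had not passed the test. They were the TC71 values of ACTG1 (-0.0104) and TAGLN (-0.0082) under upper quartile scaling, and values with 1 library left out, with ranges of -0.0085 to 0.0486 for ACTG1, -0.10 to 0.22 for TAGLN and -0.0268 to 0.55 for FHL2 in TC71, and of -0.0166 to 0.0517 for the VCL difference of responses. Among the called values of other named genes, each recomputed under the alternatives that gave a value for it, 1 turned direction, 79 lost the call and 3251 kept both. The 1 that turned was RAC1 at 0 h, higher in EW8 by 0.0862 (adjusted p = 0.0498) and at -0.0472 with total counts. Scaling by total counts moved the median of all genes from 0.03 to 0.16 in EW8 and from -0.0094 to -0.14 at 0 h. ACTB in TC71 then passed (0.10, adjusted p = 0.0154) and VCL at 0 h did not (0.04, adjusted p = 0.313), while SRF, ACTB and ACTG1 still fell in EW8. FLNA passed in EW8 with each line fitted alone (-0.17, adjusted p = 0.000399) and with a fit that was not robust (adjusted p = 0.0263), and in TC71 it missed with the line alone (adjusted p = 0.0534) or upper quartile scaling (adjusted p = 0.0526). The SRF difference of responses passed with at least 10 counts in every library (-0.16, adjusted p = 0.0397) and without EW8 0 h replicate 2, TC71 0 h replicate 2 or TC71 48 h replicate 2 (adjusted p = 0.0264 to 0.0370). The cause of these moves was not tested.

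With no fold threshold, 4 genes in place of 1 were called lower in EW8, 3 in place of 1 higher and 1 in place of 0 lower in TC71, 4 in place of 1 negative for the difference of responses, and 7 and 2 in place of 1 and 1 at 0 h. Leaving out 1 library at a time, genes lower in EW8 at 0 h numbered 1 to 2, genes upregulated in TC71 0 to 1 and genes with a positive difference above 2-fold 1 to 3. The replicate block left all calls of the 9 genes in place, with SRF at -0.38 in EW8 and -0.24 in TC71 (adjusted p = 0.00235) and FLNA at 0.26 in TC71 (adjusted p = 0.0177), and counts of 4 that rose and 4 that fell in EW8. TAGLN, ACTA2, FHL2 and TPM1 rest on 15 to 384 counts a library, the fewest among the 9 genes.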

Other observations

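A gene of the wider target list differed between the lines far more than any of the 9 genes, and it was chosen after its values were seen. CALD1 encodes caldesmon, which binds actin, tropomyosin and myosin and is a known target of SRF. EW8 libraries held 670, 469 and 967 CALD1 counts before removal of doxycycline and 461, 516 and 523 after it. TC71 libraries held 1, 1 and 0 before and 0, 2 and 0 after, at like depth. CALD1 was thus present in all 6 EW8 libraries and near or at 0 in all 6 TC71 libraries. In EW8 it fell by 0.18 (adjusted p = 0.0369).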
